A study of Mus with 2 samples.

Results

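The complement genes described here are C1qa, C1qb, C1qc, C4b, C3, Cfb, Cfi, Serping1 and C3ar1, 9 of the 8191 distinct genes in a comparison of kidney cells from young and senescent C57BL/6 mice. They were selected on measured values, since a gene could be described only where the authors' table of differences listed it, and its mean in each library was then read from every cluster that listed it. Of the 9 genes, 8 were listed, in 16 entries, with the senescent mean above the young one in 13 and below it in 3. Serping1, which encodes the inhibitor of the C1 proteases, was listed in no cluster.

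Whole kidneys were dissociated with collagenase IV, pronase E and DNase I and their cells were sequenced in droplets, as 1 library from young and 1 from senescent C57BL/6 mice. The labels describe the groups only as young mice and senescent mice. The sources used here gave no age, sex, treatment or number of mice per library. The series states 10895 and 4408 cells for the young and senescent mice. Values are the authors' scaled means per cell within 7 clusters. Their names for 4 of these, PT, LOH, endo and Marco, are read here as names for proximal tubule, loop of Henle, endothelial cell and macrophage, and the other names, T, B and Neutro, as T cell, B cell and neutrophil.

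Complement is a cascade of plasma and surface proteins that marks particles for uptake and attracts leukocytes. The classical pathway starts when C1q binds antibody or cell debris, after which C4 and C2 are cleaved. The alternative pathway amplifies the deposition of C3 fragments through factor B. Factor I, encoded by Cfi, inactivates deposited fragments, and small fragments of C3 act on the receptor C3ar1. The liver makes most circulating complement, macrophages make C1q, and kidney tubule cells are known to make C3 and C4 themselves.

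The table listed a gene in a cluster only where its p-value over cells was under 0.05, so a gene that is not listed can be called neither unchanged nor absent. No entry had an absolute log2 fold change below 0.360, and the sources used here do not say whether a fold cut was also applied. Each value is 1 mean of 1 library, with no spread between mice and with unknown depth, and no test between the groups was possible. The entry with the largest p among the 16 was Cfi in endo, at 0.0140 in the authors' deposited table. The smallest absolute log2 fold change among them was 1.92, for Cfb in Marco. Tubule transcripts differed between the libraries in the immune clusters and in LOH. The summed mean of the listed markers among 16 of proximal tubule was 837 in young and 27.6 in senescent cells in Marco (15 listed), 677 and 26.3 in T (16 listed), and 681 and 28.4 in B (15 listed). In LOH that sum was 279 and 20.3 (14 listed), in PT it was 947 and 251 (14 listed), and in endo it was 401 and 141 (8 listed). Kap, an abundant androgen-dependent transcript, made up most of each young sum. Without it the sums were 195 and 25.4 in Marco, 172 and 23.4 in T, and 182 and 27.1 in B, with every listed marker still lower there. In LOH they were 76.2 and 18.8, again with every listed marker lower. Without Kap they were 228 and 230 in PT, with 6 markers higher and 7 lower, and 107 and 137 in endo, with 1 higher and 6 lower. All 13 macrophage or monocyte markers were listed in Marco and all 9 T cell or natural killer cell markers in T, and 4 of 7 B cell markers were listed in B. None of 9 endothelial markers was listed in endo and none of 7 fibroblast or mesangial markers in any cluster, so a stromal source could not be examined. A marker that is not listed may still be present, so the lists cannot decide the label endo, which is kept here as the authors' name. Of 16 proximal tubule markers, 8 were listed in endo, against 14 in LOH, 15 in Marco, 16 in T and 15 in B. These are counts of listed differences and do not give the level. Without Kap, the senescent sum was 137 in endo, against 18.8 in LOH, 25.4 in Marco, 23.4 in T and 27.1 in B. Gpx3 made up 102 of the endo sum, and it was not listed in LOH.

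In mouse genome build mm10, C1qa (136895916 to 136898844), C1qc (136889801 to 136892936) and C1qb (136880126 to 136886200) lie on chromosome 4 within 18719 bases. C4b (34728139 to 34743902), Cfb (34856374 to 34862514) and C3 (57203967 to 57228136) lie on chromosome 17. Cfi is on chromosome 3 (129836727 to 129875332), C3ar1 on chromosome 6 (122847140 to 122856157) and Serping1 on chromosome 2 (84765360 to 84775444). All are annotated as protein coding. C4b has a close paralog, C4a, 65189 bases away. C4a was not listed in any cluster, and how reads that fit both genes were counted was not given in the sources used here, so the values of C4b are uncertain to that extent.

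**Figure D1:**
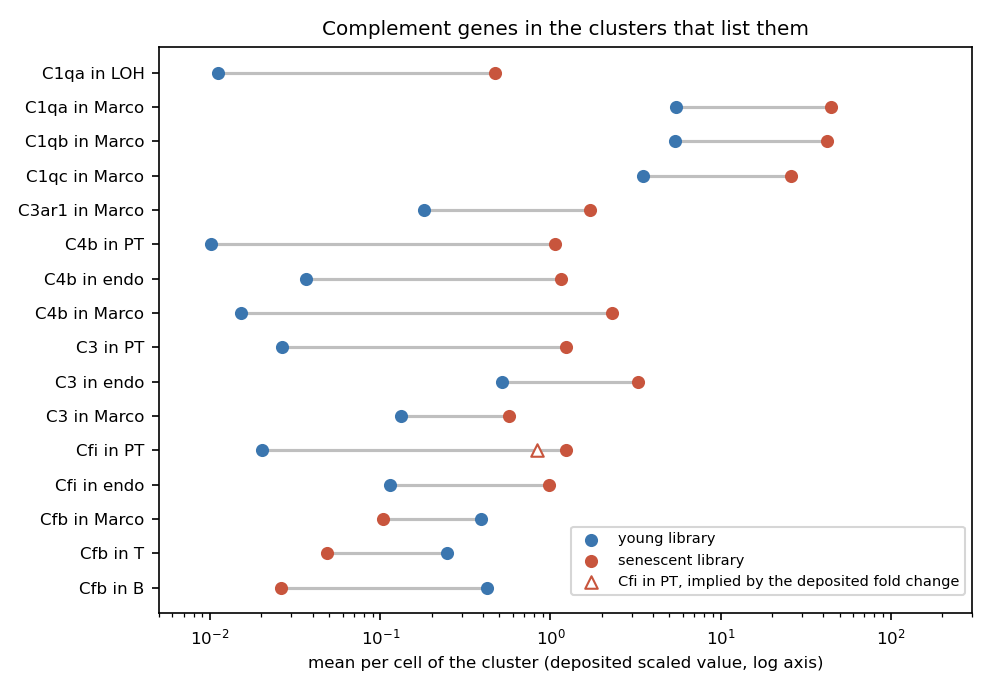
Mean per cell of each listed complement gene (log axis, deposited scaled values) in the young and the senescent library, one line per gene and cluster. The senescent mean lies to the right in 13 entries and to the left in the 3 entries of Cfb, and the open triangle is the mean of Cfi in PT of 0.834 that the deposited fold change implies.

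The chains of C1q, the recognition molecule of the classical pathway, were higher together in the senescent library in the macrophage cluster. C1qa, which encodes the A chain, had a mean of 5.50 in young and 44.5 in senescent cells, 8.10 times as high. C1qb, for the B chain, had means of 5.38 and 42.0, 7.80-fold apart. C1qc, for the C chain, had means of 3.50 and 25.7, 7.36-fold apart. The proportions of the chains were close in the libraries. C1qa made up 38.2% of their summed mean in young and 39.7% in senescent cells, C1qb 37.4% in each, and C1qc 24.3% and 22.9%. Summed over the chains, the mean was 14.4 and 112, a 7.81-fold difference.

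That difference was set beside other macrophage genes of the same cluster. On the log2 scale, with 0.01 added to both means, C1qa, C1qb and C1qc were higher by 3.02, 2.96 and 2.88. The 13 macrophage or monocyte markers had a median of 2.74, and 8 of the 13 had a smaller ratio than each C1q gene. After subtraction of that median the C1q genes were at 0.27, 0.22 and 0.13. The summed level of the 13 markers was 33.9 in young and 219 in senescent cells. The part that tubule transcripts in the young library had in these ratios was not tested.

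Outside Marco, C1qa was listed in the loop of Henle cluster, at 0.0110 in young and 0.471 in senescent cells. The young mean was close to the smallest mean above 0 listed there, 0.00816, so the 42.6-fold ratio rests on a very low value. It did not pass an adjusted p of 0.05 in the authors' deposited table. C1qa in LOH was at 0.201% of its Marco level in young and at 1.06% in senescent cells. The macrophage markers listed in LOH, which were Fcer1g, Tyrobp and Lyz2, were between 0.574% and 1.07% of their Marco levels in the young library and between 1.24% and 1.67% in the senescent library. Their summed mean in LOH was 0.164 and 1.87, and 10 of the 13 macrophage markers were not listed. C1qb and C1qc were not listed in LOH. Whether the C1qa signal there came from macrophage RNA was not tested.

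C4b encodes complement C4, whose cleavage follows C1 activation and helps to form the classical C3 convertase. It was higher in the senescent library in all 3 clusters that listed it. In PT the means were 0.0102 and 1.07, a 105-fold difference and the fourth largest of 5037 fold changes in the authors' deposited table for that cluster (rank 4). In Marco they were 0.0151 and 2.30, a 152-fold difference, and in endo they were 0.0365 and 1.15, a 31.5-fold difference. The young mean in endo was the smallest above 0 listed there, and the smallest in Marco was 0.00532, so the young means were near the lower end of what the table holds and the fold changes are imprecise. In the senescent library the order of levels was Marco, endo and PT, with PT and endo close together. With 0.01 added, the log2 ratio of C4b in Marco was 6.52, above all 13 macrophage markers, and it was 3.78 after subtraction of their median.

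C3 encodes the central opsonin precursor of all complement pathways. The young means were 0.516 in endo, 0.133 in Marco and 0.0264 in PT. The senescent means were 3.27 in endo, 0.572 in Marco and 1.24 in PT, so PT had the lowest level of these clusters in the young library and the second in the senescent library. The ratio was 46.9 in PT, 6.34 in endo and 4.30 in Marco. In Marco the log2 ratio of C3 was 2.03, larger than that of 2 of the 13 macrophage markers, and subtracting their median reversed its sign to -0.72.

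Cfi encodes factor I, the protease that inactivates C3b and C4b. It was listed in PT and endo. In endo the means were 0.115 and 0.982, an 8.56-fold difference. In PT the deposited means were 0.0201 and 1.24, but the senescent value is doubtful. It is the same in all its digits as the senescent mean of C3, which stands in the row directly above (rows 11 and 12 of the table), and C3 and Cfi were the only 2 of 5037 genes in PT that shared a senescent mean. The log2 fold change of Cfi in the authors' deposited table was 5.37, whereas the means give 5.94 by the formula that holds within 0.01 in every other row. The deposited fold change implies a senescent mean of 0.834 and a 41.5-fold difference, against 61.8-fold from the deposited means. Both readings put Cfi higher in the senescent library.

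The PT values of C4b, C3 and Cfi were set beside those of all genes listed in that cluster. All 3 listed members were higher and passed the adjusted p of 0.05 and the absolute log2 fold change of 1 in the authors' deposited table. Of all 5037 genes listed in PT, 78.4% were higher and 57.2% passed in that direction, so nothing is read from the count. The median log2 ratio was 5.38 for the 3 members and 1.17 for all listed genes. In endo all 3 listed members were higher, against 48.2% of all 1028 listed genes, and 0 passed in the authors' deposited table, where 0.389% of genes did. The medians in endo were 2.99 for the members and -0.46 for all listed genes. C1qa in LOH was among 47.8% of listed genes that were higher, and 2.16% passed as higher in the authors' deposited table, C1qa not among them.

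**Figure D2:**
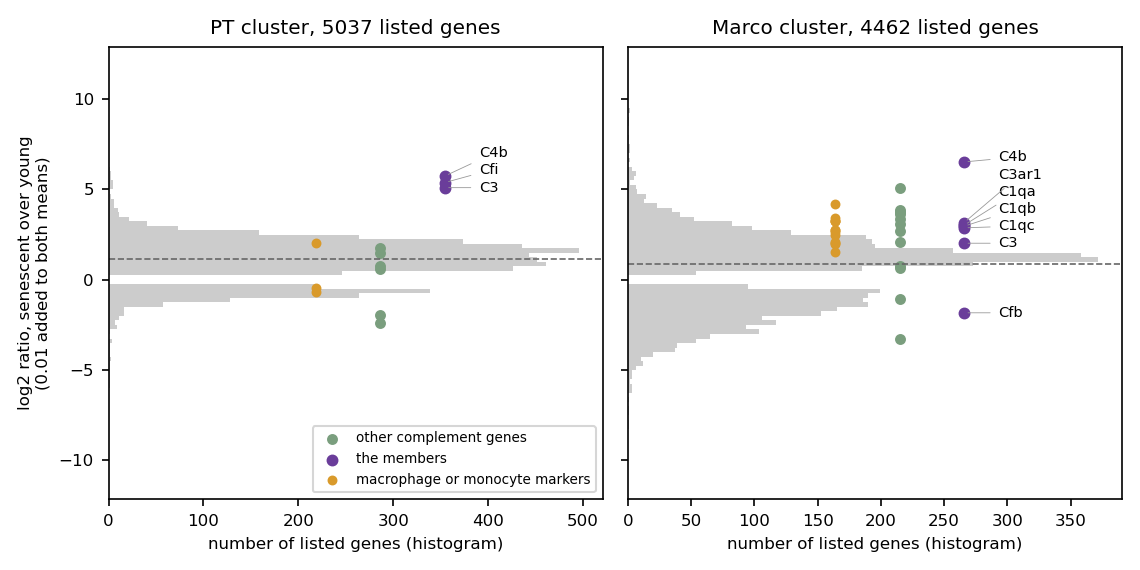
Histograms of the log2 ratio of the senescent over the young mean (0.01 added to both) over all genes listed in PT (5037) and Marco (4462), with points for the complement members, other complement genes and macrophage or monocyte markers; the dashed line is the median of all listed genes, and the points' horizontal position has no scale. In PT the 3 members lie between 5.10 and 5.74, and in Marco the C1q genes and C3ar1 lie within the range of the macrophage markers, C4b above it and Cfb below it.

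Markers of immune cells were listed in both clusters. In PT, 3 of 13 macrophage markers were listed, with sums of 0.916 and 0.852, and 3 of 6 neutrophil markers, with sums of 2.89 and 5.30. In endo, 2 macrophage markers, at 0 in young cells, summed to 0.763 in senescent cells, and 2 neutrophil markers, also at 0, summed to 3.21. Their part in the values of C4b, C3 and Cfi was not tested. Tubule markers were compared by their levels. Of the proximal tubule markers listed in both endo and PT (6), the level in endo was between 20.1% and 80.7% of that in PT in the senescent library, with a median of 55.1%, and the young median was 57.7%. In the same library C3 in endo was at 264% of its PT level and C4b at 108%. Cfi was at 79.1% by the deposited PT mean and at 118% by the implied one. In Marco the 13 markers listed in both clusters were between 6.77% and 16.0% of the PT level in the senescent library, while C4b was at 216% and C3 at 46.1%. Both values were above the range of the markers in that library. In the young library the markers in Marco were between 26.8% and 200.3% of the PT level. There C3, at 503%, was above that range and C4b, at 148%, was within it. The young means of C4b were 0.0151 in Marco and 0.0102 in PT, so its percent is imprecise. The part of tubule transcripts in the values in endo and Marco was not tested.

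Cfb encodes factor B, the protease precursor of the alternative pathway convertase, and it was the member with lower means in the senescent library. In Marco the means were 0.393 in young and 0.104 in senescent cells, a 3.79-fold lower level. In T they were 0.247 and 0.0488, 5.05-fold lower, and in B they were 0.425 and 0.0260, 16.4-fold lower. The senescent mean of Cfb in B ranked 2776 of 3077 listed genes. The smallest senescent mean above 0 in B was 0.00475, so the ratio in B rests on a low value and is imprecise. Cfb was not listed in PT, LOH or endo. Its log2 ratio, with 0.01 added, was -1.83 in Marco, -2.13 in T and -3.60 in B. Proximal tubule markers were lower in the same clusters, in 15 of 15 listed in Marco, 16 of 16 in T and 15 of 15 in B, with median log2 ratios of -3.74, -3.42 and -3.36. The ratio of Cfb was less negative than that of 13 of these markers in Marco and 14 in T, and than that of 6 in B.

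The level of Cfb in T and B was also set beside its level in Marco. In the young library its mean in T was 62.8% of that in Marco and its mean in B was 108%. The 15 tubule markers listed in the compared clusters had medians of 89.8% in T and 77.7% in B, with ranges of 60.7% to 339% and 37.2% to 189%. In the senescent library Cfb was at 47.1% in T and 25.1% in B, where the markers ranged from 46.5% to 180% and from 55.4% to 123%. The value of Cfb in B lay outside that range, but it rests on a low senescent mean of 0.0260. The part of tubule transcripts in the lower Cfb was not tested.

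**Figure D3:**
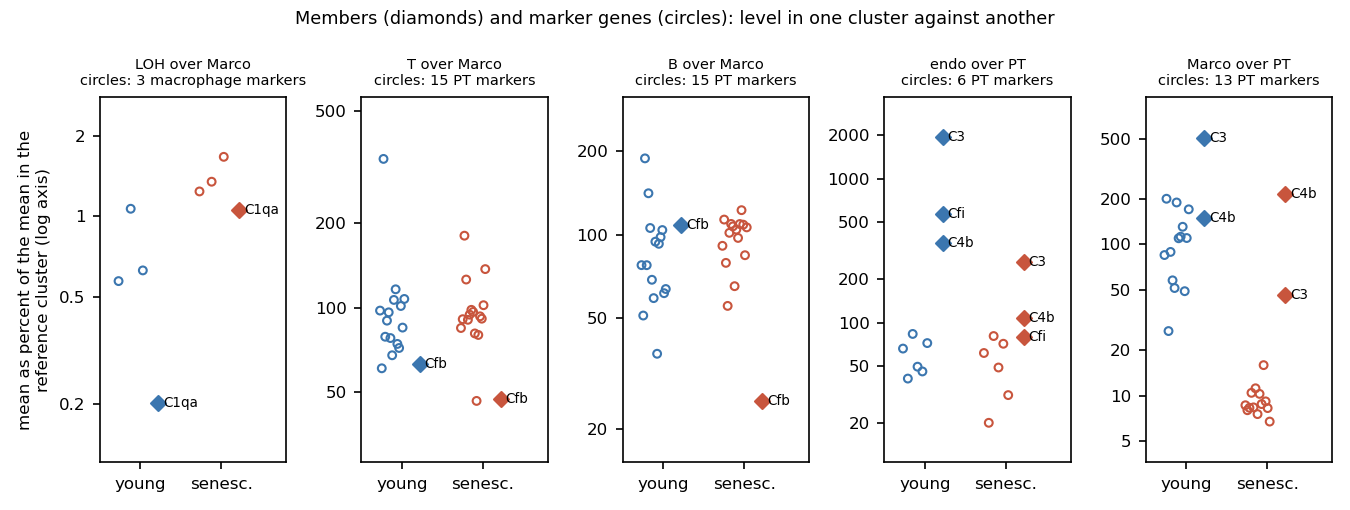
Level of a gene in one cluster as a percent of its level in a reference cluster (log axes, a separate scale per panel), in the young and the senescent library, for members (diamonds) and marker genes (circles). C4b and C3 in Marco, at 216% and 46.1% of PT in the senescent library, stand above the 13 tubule markers (6.77% to 16.0%), and Cfb in T lies near the lower end of the markers. In the young library C4b in Marco, at 148% of PT, lies within the range of the 13 markers (26.8% to 200.3%), and C3, at 503%, lies above it.

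C3ar1, the receptor for the C3a fragment, was listed in Marco alone, at 0.181 in young and 1.70 in senescent cells, 9.36 times as high. Its log2 ratio of 3.16 was larger than that of 8 of the 13 macrophage markers and was 0.42 after subtraction of their median. In all, 7 members were listed in Marco. Of these, 6 were higher, against 58.3% of all 4462 listed genes, and Cfb was lower, against 41.7%. Of the 6, 5 passed as higher in the authors' deposited table, C3 being the exception (adjusted p = 0.671), against 22.9% of listed genes, and Cfb passed as lower, against 23.6%. The median log2 ratio was 2.96 for the 7 members and 0.89 for all listed genes. In T and B, where Cfb was the sole member listed, 55.2% and 71.8% of listed genes were lower. Cfb did not pass in either according to the authors' deposited table, where 20.7% and 15.5% of genes passed as lower. These adjusted p-values are over cells and say nothing of the spread between mice. The sources used here do not say how many cells each cluster held.

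The rest of the pathway was read from 7 lists with 50 further genes, of which 20 were listed in at least 1 cluster, in 36 entries. In Marco 10 of 12 listed genes were higher, against 58.3% of all listed genes, and 2 were lower. Of these, 8 passed as higher and 2 as lower in the authors' deposited table, against 22.9% and 23.6% of all listed genes. Most were receptors, with 7 of 8 listed receptor genes higher. C5ar1, the main receptor for C5a, had means of 0.155 and 2.05, 13.2-fold apart, and the second C5a receptor gene, C5ar2, was listed at 0 in young and 0.330 in senescent cells. Itgam, the alpha chain of complement receptor 3 (CD11b), had means of 0.164 and 2.50, and Itgb2, the beta chain that it pairs with, had means of 0.292 and 2.57. Itgax, the alpha chain of complement receptor 4, had means of 0.0956 and 0.673, and Cd93 had means of 0.0352 and 0.599. Several of these genes are themselves used as myeloid markers. The log2 ratios of Itgam, C5ar1 and Cd93 were each larger than those of 12 of the 13 macrophage markers, and those of Itgb2 and Itgax were larger than 8 and 6.

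Cfp, for properdin, which stabilises the alternative convertase, also had a higher senescent mean in Marco, at 0.139 and 0.617, 4.45-fold apart. C1qbp, a mitochondrial protein that can bind C1q, was lower in all 3 clusters that listed it, at 1.45 and 0.704 in Marco, 1.31 and 0.8497 in T, and 1.90 and 1.08 in B.

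In PT 4 of 6 other listed complement genes were higher, against 78.4% of all listed genes, and 2 were lower. C2, which lies 87 bases from Cfb and encodes the protease that joins C4b in the classical convertase, had means of 0.0909 and 0.272, a 2.99-fold difference. Cpn1, for a carboxypeptidase that inactivates C3a and C5a, had means of 0.563 and 1.96. The membrane regulator gene Cr1l was at 0.178 and 0.312 and calreticulin, encoded by Calr, at 2.04 and 3.06. The lower genes were Clu, which encodes clusterin, an inhibitor of the terminal complex, at 0.331 and 0.0539, and C8g, at 0.795 and 0.198. C8g, a chain of the terminal component C8, was lower in all 5 clusters that listed it, including Marco, at 0.392 and 0.0315. Its log2 ratio was -3.27 in Marco, -2.75 in T and -3.19 in B. All listed proximal tubule markers were lower in these clusters too, with medians of -3.74, -3.42 and -3.36. The part of tubule transcripts in the lower C8g there was not tested. The other listed gene of the 7 further terminal pathway genes was C8a, in T.

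T listed 10 of the 50 further genes, of which 8 were lower, against 55.2% of all listed genes. B listed 4, of which 2 were lower, against 71.8%. Among the lower genes in T were C8a, C1rl of the classical pathway and Mbl1 of the lectin pathway, with senescent means of 0.0150, 0.0235 and 0.00445, and Cfb was lower there as well. All 16 proximal tubule markers were also lower in T, and the part of tubule transcripts in these values was not tested. None of the 10 genes in T and 0 of the 4 in B passed both the adjusted p and the fold in the authors' deposited table. Endo listed 3, with Cpn1 higher and Clu and C8g lower, and LOH listed Cd59b, as higher.

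**Figure D4:**
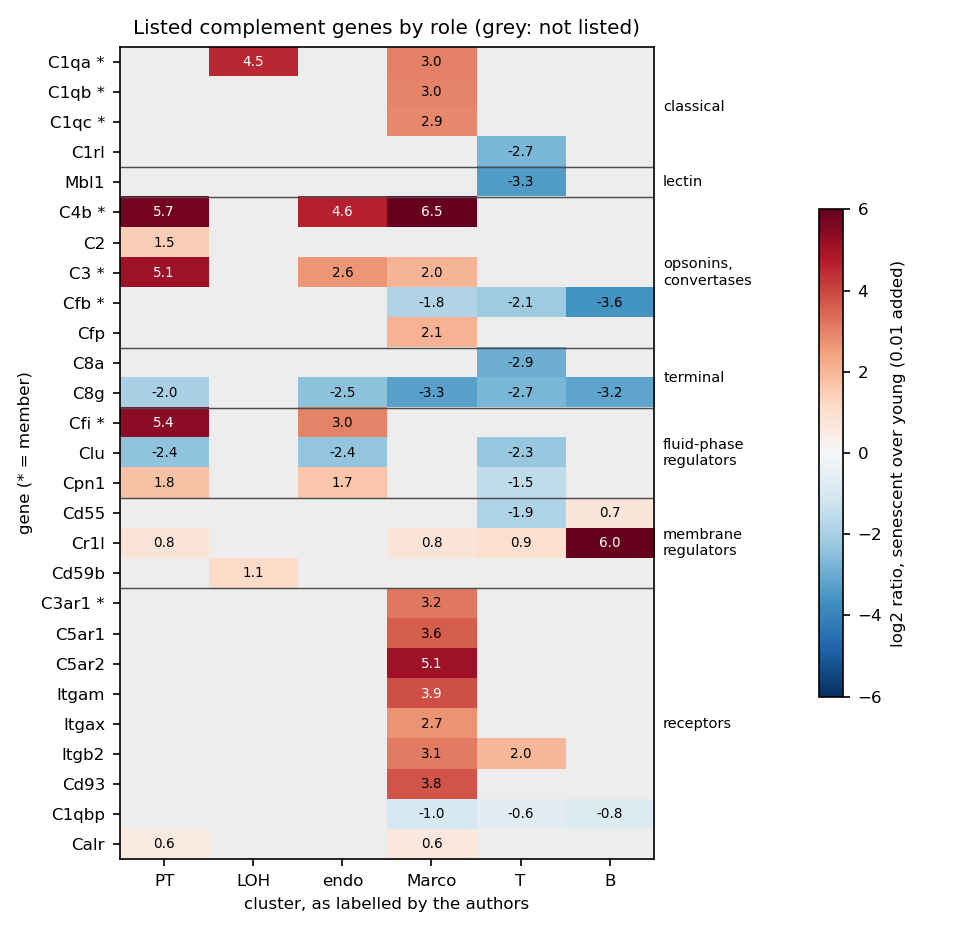
Log2 ratio of the senescent over the young mean (0.01 added to both) of listed complement genes, by role (rows, members with an asterisk) and cluster (columns), with grey where the gene is not listed. The receptors have their listed values mostly in Marco, C8g is negative in all 5 clusters that list it, and the value of Cr1l in B is set by the added 0.01, since its young mean was listed at 0.

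Acute phase proteins, which the liver releases together with C3 in inflammation, were read from a list of 15. In PT the 3 listed genes were higher and passed in the authors' deposited table, where 78.4% of listed genes were higher and 57.2% passed as higher. With only 3 genes, nothing is read from the count. Fgg, a fibrinogen chain, was at 0.116 and 1.21, Fga, another fibrinogen chain, at 0.1004 and 0.478, and Cp at 0.00849 and 0.606. In Marco the 3 listed genes were higher as well, against 58.3% of listed genes, with Hp, which encodes haptoglobin, at 0.243 and 3.57 and Lcn2 listed at 0 in young and 0.563 in senescent cells. Of 6 neutrophil markers, 4 were listed in Marco, 3 of them higher, with S100a8 at 0 and 4.34, and 1 lower, G0s2, at 0.895 and 0.329. Their summed mean was 0.953 and 6.91. LOH listed Lcn2 alone of the 15, at 0.128 and 3.26, and it passed as higher, as 2.16% of listed genes did. The 2 neutrophil markers listed in LOH summed to 0.0575 and 5.42. Endo listed Cp alone, at 0.172 and 2.68, and it did not pass. Hp and Lcn2 are known in neutrophils, and the part of neutrophil RNA in the values in Marco and LOH was not tested.

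The further genes that the table's own annotation places in the complement and coagulation pathway, without the genes of the lists above, numbered 10 in PT, 8 of them higher. In Marco 5 of 10 were higher, in LOH 2 of 5, in T 1 of 5, in endo 3 of 3, and in B all 4 were lower. The share of all listed genes that were higher was 78.4% in PT, 58.3% in Marco, 47.8% in LOH, 44.8% in T, 48.2% in endo and 28.2% in B.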

How the data were processed

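Reads were processed with Cell Ranger 2.1.1 against mm10, per the submitters' processing notes. The authors deposited 1 table of 20111 entries for 7 clusters. Its group columns hold a scaled signal that the authors averaged per cell, with a scale factor, cell filters, doublet treatment, clustering and test that are not given in the sources used here. Columns were assigned to libraries by the labels' descriptions. The table's own contrast name does not say which group is young, so every direction rests on those descriptions. The deposited log2 fold changes match the ratio of the senescent and young means, with 0.0001 added to each, within 0.01 in every row but 1. The deposited p-values are under 0.05, and the adjusted p-values equal them times about 32574, as a Bonferroni adjustment gives.

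Computed here were ratios of means, log2 ratios with 0.01 added to both means, which understate low genes, and counts past an adjusted p of 0.05 and an absolute log2 fold change of 1 ("passed"). A median needed 3 members. No test was run, since each group had 1 library; depth is unknown, and no interval was computed. The code was tested on simulated data. The members and lists were chosen with earlier results of these data known. By the naming rule, all members were named, with up to 6 other complement genes per cluster at an adjusted p of at most 0.05. Itgb2, Itgax, Cfp and C1qbp in Marco fall outside it, as do the other complement genes named in B, T (except C1qbp), endo and LOH. Cp in endo does too, and all of these were chosen after seeing their values. The planned likeness search found no member listed in 4 clusters, and sequences were not analysed here. Values of 2 other genes are not reported here. Positions come from RefSeq (GRCm38.p6, the same build), where 8107 symbols matched. Python 3.11.15, numpy 2.4.6, pandas 2.3.3 and matplotlib 3.10.9 were used.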

Additional observations from a re-analysis of the deposited data

Results flagged for a closer look

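Among the complement genes outside the members, 2 were listed in opposite directions in different clusters of the same pair of libraries, and neither difference was tested, with 1 library per group. Cpn1, the carboxypeptidase gene, had log2 ratios (0.01 added) of 1.78 in PT, 1.69 in endo and -1.54 in T. The proximal tubule marker Gpx3 had the same directions, at 1.01 in PT, 0.96 in endo and -1.21 in T. All 16 listed tubule markers were lower in T, while in PT 6 were higher and 8 lower, and in endo 1 was higher and 7 lower. The part of tubule transcripts in the value of Cpn1 in T was not tested. Cd55, which encodes decay-accelerating factor, was at -1.85 in T and 0.74 in B, with means of 0.545 and 0.144 in T and 2.20 and 3.68 in B. No member was listed in both directions.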

How the results depend on the processing

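With 1 library per group, no library could be left out and no spread is known, so a log2 ratio is said here to have moved where the ratio itself, before the log, changed by over 1.5 times. Every log2 ratio of a member kept its direction under each added constant and each scaling tried, except C3 in Marco, which went from 2.03 to -0.72 after subtraction of the macrophage markers' median. The other 6 in Marco moved after that subtraction. Of the 16 log2 ratios, 3 moved with 0.0001 added, 9 with 0.1 and 13 with 1. Subtraction of the median of all listed genes moved 11, and that of the ribosomal protein genes' median moved 15. The median of the members moved from 5.38 in PT to 3.41 with 0.1 added, 1.13 with 1 added and 4.20 after subtraction of the median of all listed genes. In Marco it moved from 2.96 to 1.70 with 1 added and 2.07 after that subtraction, and in endo from 2.99 to 1.05 with 1 added. The low young means make the ratios depend on the constant. Without the adjusted p, every listed member was counted, so the numbers went from 0 to 1 in LOH, T and B and from 0 to 3 in endo. Since every listed gene had a p under 0.05, that setting is no check on the calls. With an adjusted p of at most 0.05, the other complement genes went from 1 to 0 higher in LOH and endo, from 2 to 0 higher in T and B, from 2 to 0 lower in endo and B, and from 8 to 1 lower in T. The median of all listed genes lay between -1.12 in B and 1.17 in PT in the clusters that list a member. The mean of Cfi implied by its deposited fold change, an alternative chosen after seeing the data, gave a log2 ratio of 4.81 in PT against 5.38.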
